A study of Homo sapiens with 12 samples.

Results

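The genes described here are 40 genes of ribosome biogenesis and rRNA processing, given as a named list of nucleolar genes. The rule that assigns probe sets to them uses no difference between groups, but the list was proposed with earlier results of these data known. A gene was followed on Affymetrix U133 Plus 2.0 arrays by its brightest probe set, a probe set being a group of probes for 1 transcript. Of the 40 genes, 34 were measured on a probe set assigned to them alone, among 15587 genes tested, and all 34 passed the filter on low values. NOP56, DKC1, BOP1 and PPAN are represented by probe sets assigned to several genes, so no value is given for them by name. GNL3 and DDX18 are not listed in the annotation used here.

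All arrays carried RNA of H929, an established human myeloma cell line, on 3 arrays for each of 4 groups. Cells of the combination group were treated for 24 hours with 250 nM CHR-3996 and 1 µM tosedostat. The next groups received 250 nM CHR-3996 alone, an inhibitor of histone deacetylases, or 1 µM tosedostat (CHR-2797) alone, an inhibitor of aminopeptidases, also for 24 hours, and the last group was untreated. The arrays are labelled as biological replicates of 1 line, but no source used here states that the cultures were separate or whether untreated cells received vehicle, so p-values measure the spread between these arrays. Levels are the deposited log2 values, on which a difference of 1 is 2-fold, and differences were tested with limma, a linear model fitted across all probe sets, with p-values adjusted by Benjamini and Hochberg over the 36395 probe sets kept. A gene is called higher or lower where the adjusted p is under 0.05.

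Ribosomes are built in the nucleolus. RNA polymerase I transcribes ribosomal DNA into a long precursor, guide RNAs with their box C/D and box H/ACA proteins direct its methylation and pseudouridylation, and the small subunit processome and the 60S factors cut, fold and package it into both subunits. Myeloma cells secrete large amounts of immunoglobulin and make correspondingly heavy use of ribosomes. The transcription factor MYC, with its partner MAX, binds the E-box CACGTG and is a well-known activator of nucleolar genes.

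The E-box was searched in RefSeq promoter windows of assembly GRCh38.p14, from 250 bases before to 50 bases after the start of each gene. CACGTG is its own reverse complement, so both strands are covered by 1 search, and no other motif was searched. Of the 40 genes, 34 have a window, and 16 of these (47.1%) hold the motif. Of all genes with a window, 2396 of 27305 (8.77%) hold it, and of protein coding genes 10.9% of 15842. Counted by window, of which a gene can have several, the share is 2548 of 35116 (7.26%). The 16 genes hold 18 copies, of which 16 lie within 50 bases of the start and 10 lie after it, in the transcribed part. The sequences below are shown because they sit at the start of the 5 called genes with the largest falls under CHR-3996 that hold the motif, and of NOP10, which holds it without a called change. Capitals mark the motif, and each run is read along the gene's own strand.
MRTO4: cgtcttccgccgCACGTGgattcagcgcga
PES1: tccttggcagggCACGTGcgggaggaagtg
RRP9: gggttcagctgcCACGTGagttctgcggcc
UTP4: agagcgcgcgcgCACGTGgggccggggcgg
NOP14: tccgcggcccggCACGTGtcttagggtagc
NOP10: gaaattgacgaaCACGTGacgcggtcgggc
The MRTO4 run is chr1:19251807-19251836 on the plus strand, and its motif begins at base 15 of the transcript. The PES1 run is chr22:30591880-30591909 on the minus strand and begins its motif at base 14. The NOP14 run, chr4:2963374-2963403 on the minus strand, does so at base 16. In the RRP9 run (chr3:51941892-51941921, minus) the motif begins 5 bases before the start, in the UTP4 run (chr16:69132621-69132650, plus) 16 bases before it, and in the NOP10 run (chr15:34343130-34343159, minus) 11 bases before it. A second NOP10 copy begins 170 bases before the start. These matches describe the sequence and do not show binding.

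Under CHR-3996, 28 of the 34 measured genes fell and none rose, where 18.0% of all genes tested were called lower and 31.7% higher. The median difference from untreated cells was −0.90 on the log2 scale (53.5% of the untreated level), against a median of 0.11 over all genes tested. All CHR-3996 arrays lay below all untreated arrays for 31 of the 34 genes and above them for none, patterns seen in 22.1% and 35.7% of all genes. The other 3 genes, whose arrays overlapped, were POLR1A, NOP10 and UTP3. The median over the measured genes was 9.91, 10.18 and 10.15 on the CHR-3996 arrays, against 11.11, 11.10 and 11.06 on the untreated arrays. In these bulk samples, fewer cells and less RNA per cell cannot be told apart, and a change in the RNA content of all genes together is not visible after normalization.

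**Figure D1:**
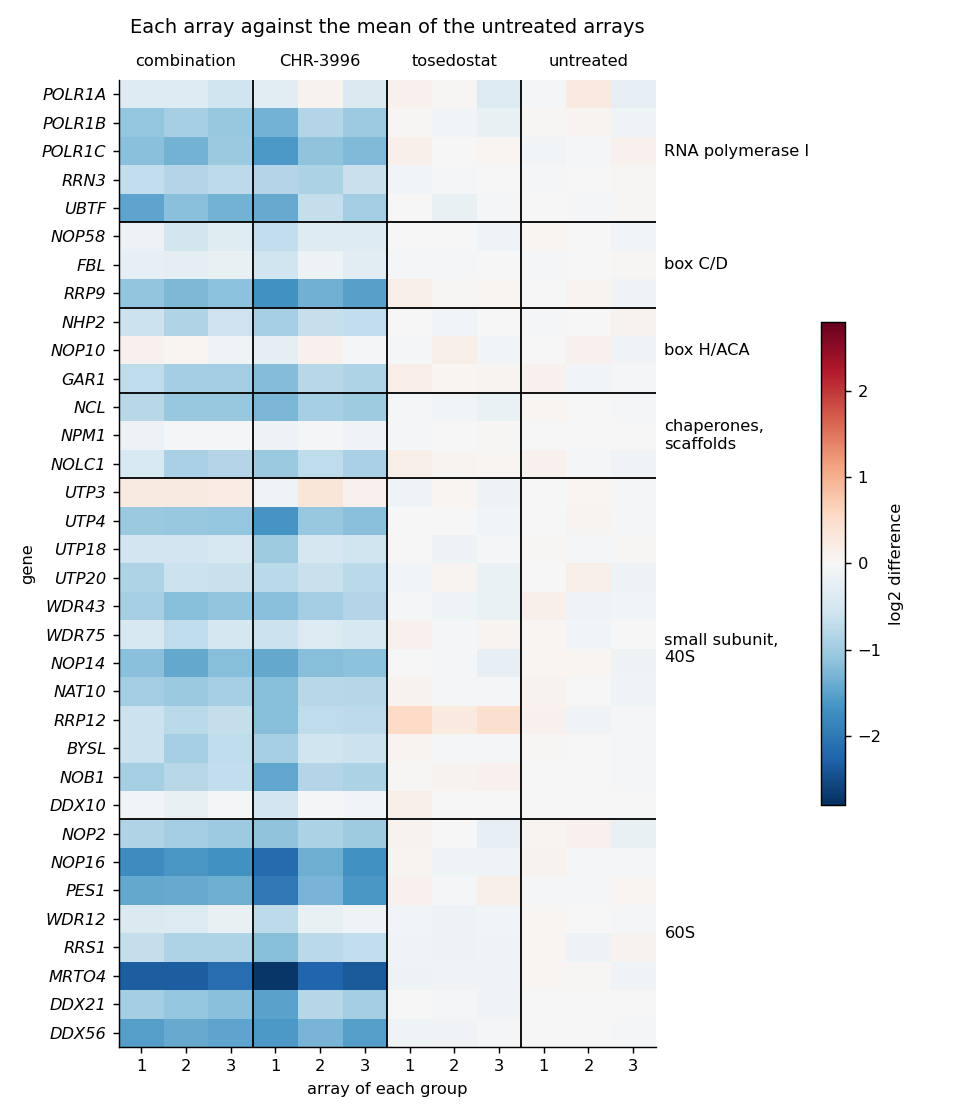
Difference of each array from the mean of the 3 untreated arrays (log2, colour) for the 34 measured genes (rows, grouped by role) on the 12 arrays (columns, by group). The combination and CHR-3996 columns are blue for most genes, and the tosedostat columns stay near 0 apart from RRP12.

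The 60S factors showed the largest median fall among the roles, −1.29, and 7 of the 8 measured were called lower under CHR-3996. MRTO4, the nuclear assembly factor that holds the place of a stalk protein on the nascent 60S subunit, had the lowest difference of all 34 genes. It read 7.58, 8.08 and 7.94 on the CHR-3996 arrays, against 10.35, 10.33 and 10.21 on the untreated arrays. The groups lay far apart, and the difference was −2.43 (SE 0.13, adjusted p = 2.6e-07 by limma), which leaves 18.5% of the untreated level. NOP16, a nucleolar 60S factor, read 9.30, 10.08 and 9.75 under CHR-3996 and 11.54, 11.40 and 11.41 without treatment. Its difference was −1.74 (SE 0.17, adjusted p = 1.1e-05 by limma), with 1 CHR-3996 array well below the other two. PES1, which forms the PeBoW complex of 60S maturation with BOP1 and WDR12, read 8.46, 9.16 and 8.84 under CHR-3996, against 10.43, 10.43 and 10.52 in untreated cells. It fell by 1.64 (SE 0.16, adjusted p = 8.7e-06 by limma). WDR12, the PES1 partner, stayed at 78.7% of the untreated level and was not called (−0.35, adjusted p = 0.0879 by limma), although its arrays did not overlap either.

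The remaining 60S factors fell by smaller amounts. DDX56, an RNA helicase of the large subunit pathway, read 8.57, 8.88 and 8.63 on the CHR-3996 arrays, against 10.20, 10.19 and 10.14 on the untreated arrays, a difference of −1.49 with no overlap. DDX21, a helicase that also works on rRNA transcription, fell by 1.09, and NOP2, an rRNA cytosine methyltransferase, fell by 1.00. RRS1, which in yeast helps to load the 5S RNA particle onto the early 60S subunit, read 10.65, 11.10 and 11.16 under CHR-3996 and 11.90, 11.71 and 11.94 in untreated cells, a fall of 0.88 (SE 0.14).

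Of the 5 genes of RNA polymerase I and its factors, 4 fell under CHR-3996, with a median of −1.02. POLR1C, a subunit shared with RNA polymerase III, fell by 1.32, POLR1B, the second largest subunit, by 1.06, and RRN3, the initiation factor that makes the polymerase competent for the promoter, by 0.79. UBTF, which binds along active ribosomal DNA and keeps it open, read 8.53, 9.29 and 8.98 under CHR-3996, against 9.97, 9.89 and 9.99 in untreated cells. The difference was −1.02 (SE 0.17, adjusted p = 0.00057 by limma), with wide spread among the CHR-3996 arrays and none reaching the untreated range. POLR1A, the catalytic subunit, read 6.84, 7.25 and 6.74 under CHR-3996 and 7.11, 7.42 and 6.92 in untreated cells. These arrays overlapped and the gene was not called on this probe set (−0.21), whereas its dimmer probe sets fell by 1.44 and 0.78.

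All 3 measured box C/D proteins fell, by unequal amounts. RRP9, which binds the U3 guide RNA of the small subunit processome, read 7.83, 8.18 and 8.00 under CHR-3996, against 9.54, 9.60 and 9.43 in untreated cells. It fell by 1.52 (SE 0.11, adjusted p = 1.8e-06 by limma), with no overlap between the groups. NOP58, a core protein of these particles, fell by 0.47, and FBL, fibrillarin, the methyltransferase itself, by 0.34. The FBL call (adjusted p = 0.0333 by limma) was lost without CHR-3996 array 1 (−0.23, adjusted p = 0.0957), without CHR-3996 array 3 (adjusted p = 0.0662) and without any 1 untreated array. Over the 12 arrays left out in turn, its adjusted p lay between 0.0091 and 0.0957.

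Among the box H/ACA proteins, GAR1 and NHP2 fell and NOP10 did not pass the test. GAR1 read 10.43, 10.87 and 10.78 under CHR-3996, against 11.77, 11.57 and 11.61 without treatment, a fall of 0.96 (SE 0.14). NHP2 fell by 0.75. NOP10, the smallest protein of the same particle, read 11.29, 11.65 and 11.49 under CHR-3996 and 11.52, 11.66 and 11.44 in untreated cells, and the overlapping arrays gave a difference of −0.06 (95% confidence interval −0.35 to 0.22).

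The nucleolar chaperones and scaffolds also divided. NCL, nucleolin, an abundant protein of rRNA transcription and folding, fell by 1.07. NOLC1, a scaffold that escorts guide RNA particles, read 11.53, 11.85 and 11.66 under CHR-3996, against 12.69, 12.54 and 12.48 in untreated cells, and fell by 0.89 (SE 0.14). NPM1, nucleophosmin, the histone and ribosome chaperone, read 13.52, 13.61 and 13.54 under CHR-3996 and 13.66, 13.69 and 13.68 in untreated cells. All CHR-3996 arrays were lower, by little, and the difference of −0.12 (95% confidence interval −0.31 to 0.08) was not called. Its dimmer probe sets were called lower, at −0.40 and −0.32.

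Of the 12 factors of the small subunit processome and 40S maturation, 10 fell under CHR-3996, with a median of −0.80. UTP4, a processome protein of the complex that joins the precursor first, fell by 1.29, and NOP14, another processome protein, by 1.25. NOB1, the nuclease that makes the last cut of 18S rRNA, read 9.55, 10.19 and 10.13 under CHR-3996, against 11.03, 11.03 and 10.96 in untreated cells, a fall of 1.05 (SE 0.16). WDR43, a processome protein, read 9.71, 9.91 and 10.06 under CHR-3996 and 11.02, 10.79 and 10.81 without treatment, a fall of 0.98 (SE 0.12). NAT10, the rRNA and tRNA cytidine acetyltransferase, fell by 0.92, and RRP12, an export factor of pre-ribosomes, by 0.88. BYSL and UTP20 each fell by 0.71, UTP18 by 0.68 and WDR75 by 0.48.

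UTP3 and DDX10, both of the processome, were not called. UTP3 was the only gene with a positive difference among the 34. It read 12.08, 12.56 and 12.33 under CHR-3996, against 12.20, 12.26 and 12.16 in untreated cells, so that the arrays overlapped (0.12, 95% confidence interval −0.16 to 0.40). DDX10, an RNA helicase, had a difference of −0.22 (95% confidence interval −0.52 to 0.09).

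**Figure D2:**
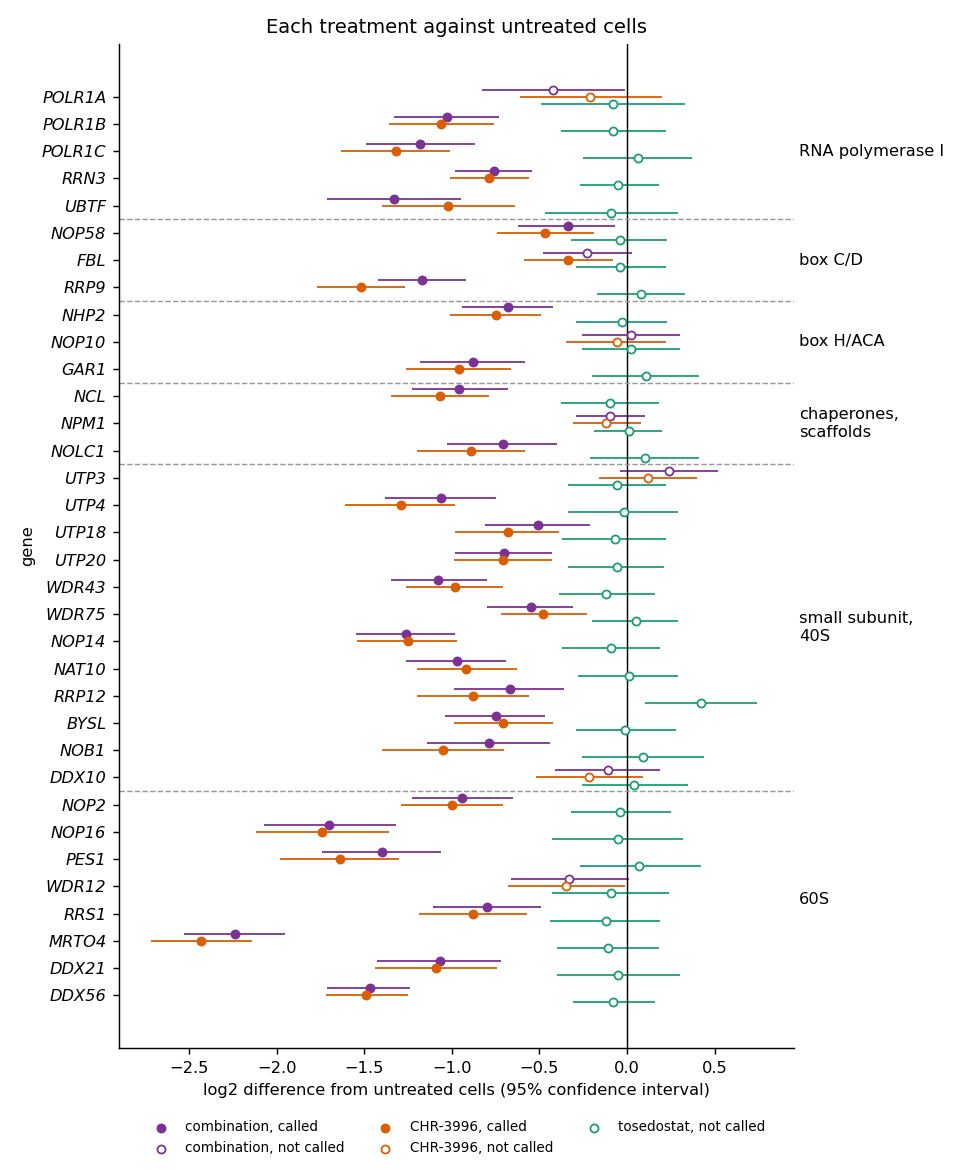
Log2 difference from untreated cells (x axis, with 95% confidence intervals) for the 34 measured genes under the combination, CHR-3996 and tosedostat, where filled points are called at an adjusted p under 0.05. The combination and CHR-3996 points lie close together at up to −2.43, and no tosedostat point is called.

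Tosedostat changed none of the 34 genes past the test, where 0.545% of all genes tested were called lower and 4.25% higher. At an unadjusted p under 0.05 there was 1 gene, RRP12, where 18.6% of all genes tested were under that threshold. Leaving RRP12 aside, the differences from untreated cells ran from −0.12 to 0.11. The median difference was −0.04, against 0.04 over all genes tested. RRP12 read 10.45, 10.17 and 10.34 on the tosedostat arrays, against 10.03, 9.81 and 9.87 on the untreated arrays. All tosedostat arrays were higher, by 0.42 (95% confidence interval 0.10 to 0.74, adjusted p = 0.164 by limma). MRTO4 read 10.15, 10.21 and 10.20 under tosedostat, all just below the untreated arrays given above, with a difference of −0.11 (95% confidence interval −0.40 to 0.18). All tosedostat arrays lay below all untreated arrays for 4 genes and above them for 2, patterns seen in 9.16% and 20.1% of all genes. The intervals bound the size of a missed change: for each of the 34 genes but RRP12 they ended between −0.49 and 0.44.

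The combination lowered 27 of the 34 genes against untreated cells and raised none, where 15.9% of all genes tested were called lower and 34.6% higher. The median difference was −0.80. For 32 genes all combination arrays lay below all untreated arrays, against 20.5% of all genes, and for 1 gene, UTP3, they all lay above, against 39.7% of all genes. MRTO4 read 8.00, 8.00 and 8.17 with the combination, and was again the lowest, at −2.24 (SE 0.13, adjusted p = 3.6e-07 by limma). NOP16 read 9.69, 9.82 and 9.75 and fell by 1.70. DDX56 read 8.63, 8.77 and 8.71 and fell by 1.47. The 3 genes stood clear of their untreated arrays by more than 1 log2 unit on every array.

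The combination arrays of UBTF, at 8.47, 8.77 and 8.62, were below the untreated arrays by 1.33 on average (SE 0.17, adjusted p = 8.2e-05 by limma). PES1 read 9.02, 9.05 and 9.10 with the combination, a fall of 1.40. NOP58 fell by 0.34 (adjusted p = 0.0441 by limma), and with the replicate number as a block it was not called (adjusted p = 0.056). When 1 array was left out, the NOP58 call stayed only without combination array 1 or CHR-3996 array 1 or 2, with adjusted p between 0.0227 and 0.155 over the 12 arrays. FBL (−0.23), WDR12 (−0.33), DDX10 (−0.11), NPM1 (−0.10) and NOP10 (0.02) were not called. POLR1A read 6.80, 6.78 and 6.60 with the combination (−0.42, adjusted p = 0.0857 by limma), and was called lower with the replicate number as a block (adjusted p = 0.0184). UTP3 read 12.46, 12.47 and 12.41, a difference of 0.24 that was not called (adjusted p = 0.145 by limma).

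**Figure D3:**
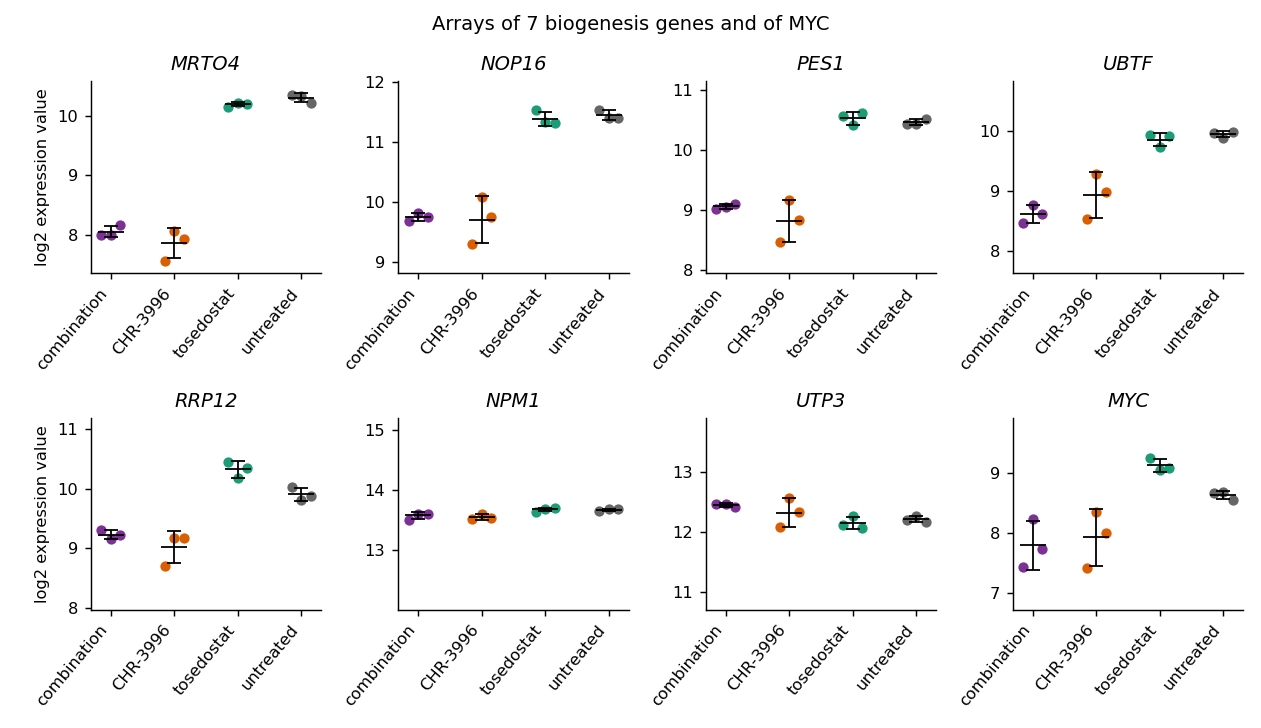
Log2 expression values of 7 of the measured genes and of MYC on each array (points), with the mean and SD of each group of 3 (black), every panel spanning the same number of log2 units. MRTO4, NOP16, PES1 and UBTF are lower on the combination and CHR-3996 arrays than on the tosedostat and untreated arrays, while NPM1 and UTP3 are nearly level.

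Adding tosedostat to CHR-3996 gave no called difference in the 34 genes, where 0% of all genes tested were called lower and 0.0577% higher. The combination minus CHR-3996 differences ran from −0.31 for UBTF to 0.35 for RRP9, with a median of 0.07, which is also the median over all genes tested. RRP9 read 8.42, 8.27 and 8.38 with the combination, all above its CHR-3996 arrays, and was the 1 gene at an unadjusted p under 0.05 (0.35, 95% confidence interval 0.10 to 0.60, adjusted p = 0.324 by limma), where 11.1% of all genes tested were under that threshold. NOB1 read 10.08, 10.24 and 10.33 with the combination, with a difference of 0.26 (95% confidence interval −0.09 to 0.61). For UBTF the interval was −0.70 to 0.07, and the arrays overlapped. POLR1A, second lowest, differed by −0.21. The intervals reach −0.70 and 0.61, so a difference of that size in a single gene could have been missed.

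The interaction, which asks whether the combination differs from the sum of the single compounds on the log2 scale, called none of the 34 genes, and none had an unadjusted p under 0.05, against 11.2% of all genes tested. Of all genes tested, 0.244% were called lower and 0.0321% higher in this contrast. The values ran from −0.23 for UBTF (95% confidence interval −0.77 to 0.32) to 0.30 for MRTO4 (95% confidence interval −0.10 to 0.71), with RRP12 (−0.21) and RRP9 (0.27) next to them. The median was 0.09, against 0.01 over all genes tested.

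Against tosedostat alone, the combination lowered 26 of the 34 genes and raised none, with a median of −0.87, where 15.8% of all genes tested were called lower and 30.4% higher. MRTO4 was the lowest, at −2.13, and NOP16 the next, at −1.64. RRP12 read 9.30, 9.15 and 9.23 with the combination, against the tosedostat arrays given above, with a difference of −1.09, against −0.67 from untreated cells. UTP3 read 12.11, 12.26 and 12.07 under tosedostat, below all combination arrays (0.30, adjusted p = 0.0800 by limma). With the replicate number as a block UTP3 was called higher (adjusted p = 0.0498) and POLR1A lower (adjusted p = 0.0472). NOP10 stood at 0.00. The comparisons with untreated cells share their untreated arrays, and those of the combination share the combination arrays.

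CHR-3996 array 1 was the lowest of its group for 32 of the 34 genes, and its actin probe sets at the 3′ and 5′ ends of the transcript differed by 1.76, against 1.57 and 1.43 on the other CHR-3996 arrays. Without it, 27 genes were called lower under CHR-3996, with a median of −0.80. The actin difference, which can move with RNA length, averaged 1.24 ± 0.15 for the combination, 1.59 ± 0.17 for CHR-3996, 2.09 ± 0.11 for tosedostat and 2.14 ± 0.17 for untreated cells (SD, n = 3 each). The same difference for GAPDH did not separate the groups in this way, at 0.36 ± 0.09 for the combination, 0.45 ± 0.06 for CHR-3996, 0.43 ± 0.08 for tosedostat and 0.44 ± 0.06 for untreated cells. The median of all probe sets on an array averaged 5.29 ± 0.02 for the combination, 5.26 ± 0.03 for CHR-3996, 5.05 ± 0.01 for tosedostat and 5.04 ± 0.03 for untreated cells. Their part in the results was not tested beyond the rescalings. With the array medians made equal, 31 genes were called lower under CHR-3996 and the median was −1.12, and with quantile normalization 29 and −1.0. Of all 36395 probe sets, 5723 were called lower as deposited, 8981 with equal medians and 9420 with quantile normalization. Over all probe sets, 34.9% of the calls under CHR-3996 were lower as deposited, 52.8% with equal medians and 52.4% with quantile normalization, and the median difference of 0.11 became −0.11 and −0.10.

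Other probe sets of the same genes gave a check on the choice of the brightest. There were 24, for 14 of the genes, and under CHR-3996 16 were called lower, 1 was called higher and 7 were not called. Of all 36395 probe sets, 5723 were called lower and 10697 higher. The second probe set of MRTO4 also gave −2.43, a second one of NOP16 gave −2.06, those of UBTF ran from −1.95 to −1.62, and those of NOLC1 gave −1.88 and −1.67. The call of a rise was for PES1, at 1.92 (SE 0.59, adjusted p = 0.0204 by limma), on a dim probe set with a mean of 3.78 over the 12 arrays, so PES1 has probe sets that disagree. The second UTP18 probe set, with a mean of 4.31, gave 0.05, and that of RRP12 gave −0.43 without a call (adjusted p = 0.252 by limma). A dimmer WDR12 probe set averaged 8.56 under CHR-3996 and 8.28 in untreated cells. For a dimmer POLR1B probe set these means were 7.29 and 7.31, and for the dimmest of NOP16 5.52 and 5.73.

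The list extends to other genes of the pathway. Under CHR-3996, 38 of 43 other small subunit and 40S factors fell and 1 rose, with a median of −0.75. Of 49 other 60S factors, 37 fell and 2 rose, with a median of −0.99. Among all genes tested, 18.0% were called lower and 31.7% higher. TSR1, a late 40S factor, fell to 23.2% of the untreated level, and EMG1, an 18S rRNA methyltransferase, fell by 2.0 on the log2 scale. DDX51, a helicase of the 60S pathway, fell to 20.4%, and RRP1 to 25.2%. The rises were UTP23 (0.65), EFL1 (0.52), the GTPase of the final 60S step, and NOP53 (0.57). With equal array medians EFL1 and NOP53 were not called (adjusted p = 0.144 and 0.137 by limma). The second brightest probe sets of DDX51 (0.06), RRP1 (−0.13) and UTP23 (−0.18) were not called.

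Other lists were less uniform. Of 20 other RNA polymerase I subunits and factors, 6 (30.0%) fell and 1 rose under CHR-3996, with a median of −0.26. Beside this and the next counts, 18.0% of all genes tested were called lower and 31.7% higher. TCOF1, treacle, which links the polymerase to rRNA processing, was at −2.26 and POLR1G, a subunit, at −2.16, both called lower, while TAF1C of the promoter factor SL1 rose by 0.46. The TAF1C call was lost with equal array medians (adjusted p = 0.201 by limma), and its second brightest probe set gave −1.42 without a call. Of 23 proteins of the RNA exosome, which trims rRNA precursors, and of RNase MRP, 12 fell and 1 rose, with EXOSC8 at −1.78 and EXOSC2 at −1.48. Of 11 genes listed for guide RNA particles and their assembly, 5 fell and 1 rose. SNU13 fell by 1.48 and NUFIP1 by 1.24, whereas SHQ1, a chaperone of H/ACA assembly, rose by 1.20. The NUFIP1 probe sets disagree, since the second brightest was called higher, at 0.75. Tosedostat called none of the genes in these 5 lists, and 3 of them had an unadjusted p under 0.05, against 18.6% of all genes tested.

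**Figure D4:**
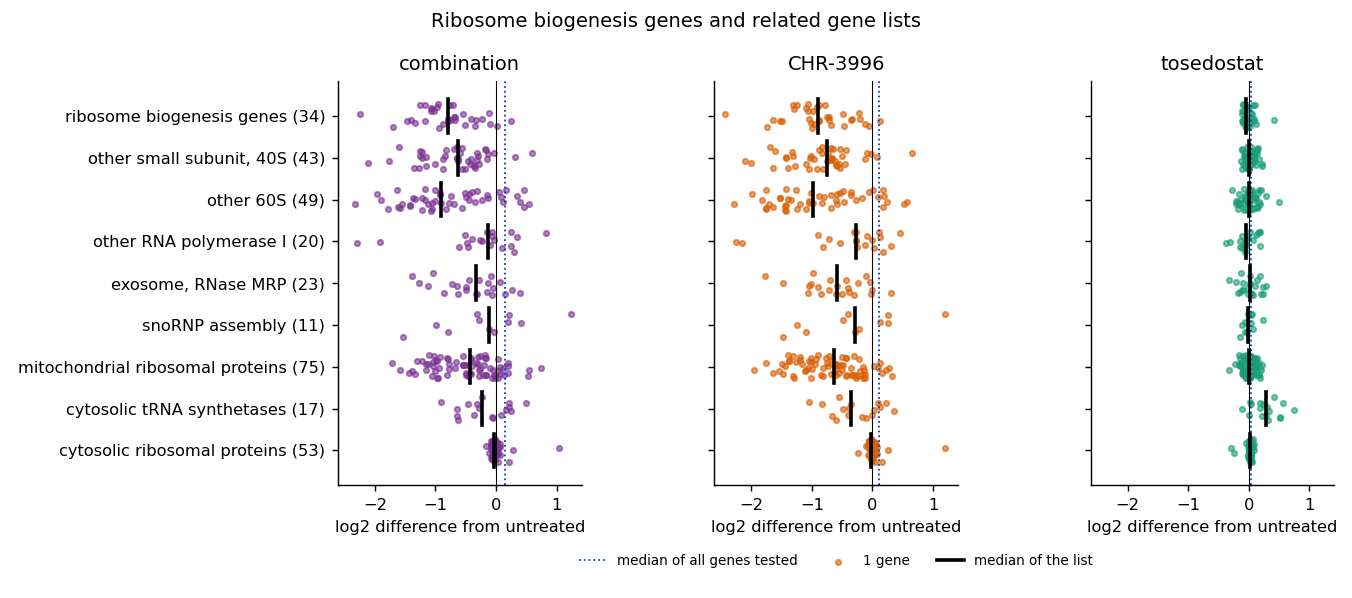
Log2 difference from untreated cells (x axis) of each gene (points) in the measured biogenesis genes and 8 related lists (rows, with the number of genes measured), for the combination, CHR-3996 and tosedostat, with the median of each list (black bar) and of all genes tested (dotted line). The biogenesis genes and both lists of other subunit factors have medians between −0.62 and −0.99 with the combination and CHR-3996, and those of the cytosolic ribosomal proteins are −0.03 and −0.02.

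The ribosome's own proteins were read mostly on probe sets at the top of the arrays' range, where the median difference of other genes was also near 0. Of 79 cytosolic ribosomal proteins, 53 were measured on a probe set of their own. Under CHR-3996 none was called lower and 1 was called higher, against 18.0% and 31.7% of all genes tested. The 1 was RPL36A (1.20), on a dim probe set with a mean of 4.25, a call lost with equal array medians (adjusted p = 0.0646 by limma). Their median was −0.02, and at an unadjusted p under 0.05 there were 2 of the 53, against 55.4% of all genes tested. This reading depends on the scaling: with the array medians made equal, 19 of the 53 were called lower and the median was −0.24, and with quantile normalization 1 was lower and 1 higher, with a median of 0.03. Of all 36395 probe sets, 8981 were called lower with equal medians (median −0.11) and 9420 with quantile normalization (median −0.1). It also rests on very bright probe sets. Of the 53, 49 had a mean over 13, where 101 other genes had a median of −0.07, with 24 lower and 8 higher. Among the 34 biogenesis genes, the 7 with a mean over 12 had a median of −0.47, with 5 called lower, and the other 27 a median of −0.98, with 23 called lower. NPM1, at a mean of 13.62, gave −0.12 and its dimmer probe sets −0.40 and −0.32. Whether changes are compressed near the top of the arrays' range was not tested, so these values do not show that the ribosomal protein genes kept their level.

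**Figure D5:**
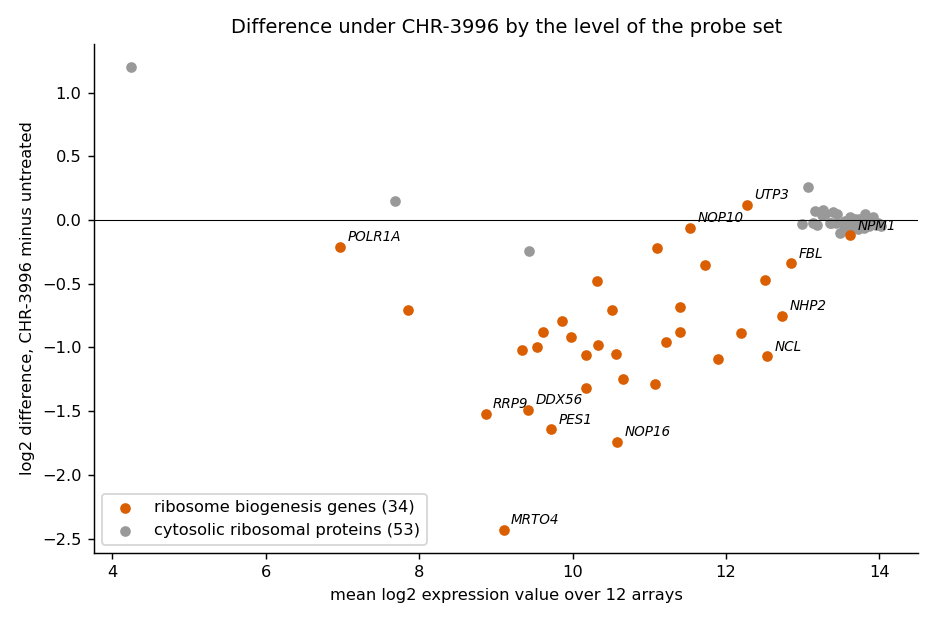
Log2 difference between CHR-3996 and untreated cells (y axis) against the mean log2 value of the probe set over 12 arrays (x axis) for the 34 biogenesis genes and the 53 cytosolic ribosomal proteins. Most ribosomal proteins lie above 13 and near 0, and the biogenesis genes with the largest falls lie between 8 and 11.

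Proteins of mitochondrial ribosomes, built by a separate machinery, fell as well. Of 75 measured, 54 were lower and 1 was higher under CHR-3996, where 18.0% of all genes tested were called lower and 31.7% higher. The median was −0.64, with MRPL27 at −1.96 and MRPL12 at −1.76. The second MRPL12 probe set, with a mean of 4.46, gave −0.47 and was not called (adjusted p = 0.131 by limma). Of 17 cytosolic tRNA synthetases, which charge tRNA with amino acids, 9 were lower under CHR-3996 (52.9%, against the same 18.0%), with a median of −0.35. Under tosedostat their median was 0.28, with none called and 8 of the 17 at an unadjusted p under 0.05, against 18.6% of all genes tested.

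MYC itself was lower under CHR-3996. It read 7.42, 8.23 and 7.72 with the combination, 7.41, 8.34 and 8.00 with CHR-3996, 9.25, 9.05 and 9.07 with tosedostat, and 8.66, 8.68 and 8.55 in untreated cells. The fall was 0.84 with the combination (SE 0.24, adjusted p = 0.0137 by limma) and 0.71 with CHR-3996 (SE 0.24, adjusted p = 0.031 by limma), whereas the tosedostat arrays lay above all untreated arrays without a call (0.49, adjusted p = 0.347 by limma). The spread among the arrays of both lowered groups was wide. The call under CHR-3996 was lost without CHR-3996 array 1 (−0.46, adjusted p = 0.115), without CHR-3996 array 3, without any 1 untreated array and with no filter on low values (adjusted p = 0.062), and that of the combination without combination array 1 (adjusted p = 0.0577). Of 9 genes of the MYC network measured, 3 were lower and 4 higher under CHR-3996. Of all genes tested, 18.0% were called lower and 31.7% higher. MXD1 and MXI1, which compete with MYC for MAX, rose by 1.39 and 1.24. MLXIP rose by 1.0 and MAX by 0.54, while MGA fell by 0.90 and MLX by 0.72. The second MGA probe set was called higher, at 1.19, so the MGA probe sets disagree. MAX was not called with equal array medians (adjusted p = 0.0791 by limma) or on its second probe set (0.24, adjusted p = 0.262 by limma). MXD1 was also higher under tosedostat, by 0.81 (adjusted p = 0.0073 by limma), though not called on its second probe set (0.59).

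Genes with and without the E-box were among those that fell. Of the 34 measured genes, 30 have a window. Of 15 measured genes with CACGTG in the window, 14 were called lower under CHR-3996, with a median of −0.98. Of 15 measured genes with a window and no such motif, 10 were called lower, with a median of −0.79. Over all genes tested, 18.0% were called lower and the median was 0.11. These shares were not split by the motif for all genes, and the difference between the 14 and the 10 was not tested. NOP16, without the motif, was at −1.74, and NOP10, with it, was at −0.06. The motif stood in 31.6% of other small subunit factors and 28.3% of other 60S factors with a window. It stood in 3 of 9 genes of the MYC network (33.3%), 14.3% of the exosome and RNase MRP list and 9 of 69 mitochondrial ribosomal proteins. The share was 11.1% in the list for guide RNA particles, 6.35% of cytosolic ribosomal proteins, 6.25% of tRNA synthetases and 5.88% of the other RNA polymerase I factors. Of protein coding genes, 10.9% hold it, as given above.

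The cells carried the plasma cell markers their label calls for. All 8 markers, among them SDC1 (CD138), TNFRSF17 (BCMA), XBP1 and IRF4, were measured. Under CHR-3996, 4 of them were called lower, against 18.0% of all genes tested. FGFR3 was the lowest, at −2.09, followed by SDC1 at −1.82, TNFRSF17 at −1.74 and XBP1 at −0.41. IRF4 (−0.29), CD38 (0.22), PRDM1 (0.13) and NSD2 (0.05) were not called. With the combination, 3 were called lower and 2 higher, CD38 (0.81) and NSD2 (0.51), against 15.9% and 34.6% of all genes tested. Of the markers of other cell types, 6 passed the filter, and CD3D, CD14 and COL1A2 did not. LYZ and HBB were called higher under CHR-3996, by 2.03 and 1.67, where 31.7% of all genes tested were called higher. The LYZ probe set was dim, with a mean of 3.90 over the 12 arrays. CD3E (−0.07), MS4A1 (0.05), COL1A1 (−0.25) and PECAM1 (−0.39) were not called. PECAM1 had the highest mean of the 6 over the 12 arrays, 8.38. The linear values of the 6 summed to between 673 and 1520 on the combination arrays, 608 and 950 on the CHR-3996 arrays, 670 and 977 on the tosedostat arrays and 535 and 747 on the untreated arrays, and no marker was at 0 throughout a group. Their part in the falls of the biogenesis genes was not tested.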

How the data were processed

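RNA of 12 H929 samples was amplified, labelled and hybridized by the authors to U133 Plus 2.0 arrays and normalized in dChip. The authors deposited log2 values for 54675 probe sets, with the dChip version and summary method not given in the sources used here. Between 1141 and 1344 values per array are exactly 0. That they are log2 was inferred from their range, and they were not normalized again. After 62 control probe sets were removed, 36395 of 54613 probe sets were kept, which exceeded the 40th percentile on 3 or more of 12 arrays. Of these, 29161 have 1 gene symbol, 1365 several and 5869 none in the annotation used here. limma 3.58.1 in R 4.3.3 was fitted with 1 term per group (8 residual degrees of freedom) and 6 contrasts. The number of arrays limits the precision.

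The members, the 11 other gene lists and the tests were chosen with earlier results of these data known. Any member may be named. Values on all arrays were due for the 3 lowest and 3 highest members in each contrast with untreated cells and the 2 lowest and 2 highest in the others, and of other lists for MYC, with the 2 lowest and 2 highest called genes named. RPL36A, the genes behind small counts and second probe sets were named after their values were seen. Replicate numbers recur across groups. After subtraction of group means, arrays sharing a number had r over 0.1 in each of 3 pairs for the combination with each single compound, for the single compounds with each other and for tosedostat with untreated cells, but not for the combination or CHR-3996 with untreated cells (lowest 0.0981 and 0.0358). Each array was nonetheless most correlated with the array of the same number in the group compared. The exception was CHR-3996 array 3, which was closest to untreated array 1. Alternatives were quantile normalization, equal medians, no filter, a stricter filter (60th percentile), the replicate block, a variance trend with robust estimation, the compared groups alone, other probe sets, the methods' fold and difference criteria, and leaving out each array. Probe sets shared with other genes were added after seeing the data. The test was tried on simulated data. Promoter sequences are from RefSeq.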

Additional observations from a re-analysis of the deposited data

How the results depend on the processing

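Of the counts and medians of the measured genes recomputed under the alternatives, 382 kept their size and 21 moved, and no direction of a median under CHR-3996 or the combination against untreated cells or tosedostat turned. With the array medians made equal, the median difference was −1.12 under CHR-3996, −1.04 for the combination against untreated cells and −1.10 for the combination against tosedostat. With quantile normalization the median of the combination against untreated cells was −0.96. The second brightest probe sets, measured for 14 genes, gave 10 lower and 1 higher under CHR-3996, 11 lower and 1 higher for the combination against untreated cells (median −1.01), 10 lower against tosedostat (median −1.02), and a median interaction of −0.10. Of all 36395 probe sets as deposited, 5723 were called lower and 10697 higher under CHR-3996. The same counts were 5149 and 11637 for the combination against untreated cells, and 4979 and 10340 against tosedostat. No share over second brightest probe sets alone is given here. Under the methods' criteria (at least 2-fold, a linear difference over 100 and an unadjusted p under 0.05) 13 genes were lower under CHR-3996, 12 with the combination against untreated cells and 11 against tosedostat. The share of all genes tested that met these criteria is not given here, so these counts have no background to be read against. UTP3 was the 1 gene called higher for the combination against tosedostat with quantile normalization, the filter at the 60th percentile, the replicate block, and the variance trend with robust estimation. The direction turned for PES1, from 1 dim probe set: 0.14 under CHR-3996 and 0.46 with the combination against untreated cells for the mean of its probe sets, and 1.92, 2.33 and, against tosedostat, 0.53 for the second brightest. For UTP18 under CHR-3996 the second brightest gave 0.05, and for RRP12 it gave −0.43 without a call (adjusted p = 0.252 by limma). Among genes of other lists under CHR-3996, the second brightest turned the direction of DDX51 (0.06), MGA (1.19), NUFIP1 (0.75), TAF1C (−1.42) and UTP23 (−0.18), and the mean of the probe sets that of TAF1C (−0.48) and UTP23 (−0.01).

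When each array was left out in turn, the genes called lower numbered 27 to 28 under CHR-3996, 26 to 28 for the combination against untreated cells and 25 to 27 against tosedostat, where 0 to 1 were called higher. Of all 36395 probe sets, those called lower then numbered 4920 to 5833, 4334 to 5384 and 4171 to 5268 in the same order. Against tosedostat, 9146 to 10466 of them were called higher. FBL and NOP58 against untreated cells are given above. WDR12 was called only without CHR-3996 array 3 under CHR-3996 (adjusted p = 0.0396) and only without CHR-3996 array 1 for the combination (adjusted p = 0.0157). Against tosedostat, NOP58 was called only without combination array 1 or CHR-3996 array 1 (adjusted p = 0.0431 each), UTP3 only without CHR-3996 array 1 or 2 (adjusted p = 0.034 and 0.0426), and the UTP18 call was lost without combination array 1 or 2 or tosedostat array 1 or 3 (highest adjusted p = 0.0694). With the replicate number as a block, NOP58 and POLR1A against untreated cells and POLR1A and UTP3 against tosedostat changed their call, as given above, and no other call of these genes changed, while tosedostat calls over all probe sets went to 373 lower and 1936 higher, against 164 and 1174 without it. With the 4 genes on shared probe sets included, an alternative chosen after seeing the data, 32 of 38 were lower under CHR-3996, 31 with the combination against untreated cells and 30 against tosedostat. Of all 15587 genes tested, 18.0%, 15.9% and 15.8% were called lower in these contrasts. Precision is limited by the 3 arrays of each group.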
